A study of Mus musculus with 24 samples.

Results

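The replication-dependent histone genes of mouse thymocytes were measured with 44 probes for 40 genes, out of 55681 probes tested on each array that name 21154 genes. A probe was a member if its accession maps to a clustered histone gene of the H1, H2A, H2B, H3 or H4 class (older symbols Hist1h, Hist2h, Hist3h or Hist4h). The gene table holds 67 protein-coding genes of this kind, and the other genes were not measured here. The members comprise 4 probes of linker histone H1, 12 of H2A, 9 of H2B, 7 of H3 and 12 of H4. Of the 40 genes, 32 lie on chromosome 13, 7 on chromosome 3 and 1 on chromosome 6. H2ac15, H4c4, H4c12 and H4c14 have 2 probes each.

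Thymocytes were strained from the dispersed thymus of male and female C57BL/6J mice, 4 to 5 weeks old, with 3 mice for each of 8 groups. Control mice were not irradiated, the low dose group received 0.075 Gy of X-rays, the high dose group received 1.75 Gy of γ-rays, and the RAR group (radio-adaptive response) received 0.075 Gy of X-rays and, 6 h later, 1.75 Gy of γ-rays. X-rays and γ-rays are different kinds of radiation, so dose and kind cannot be told apart between the single exposures, and the time from irradiation to cell harvest is not given in the sources used here. On each of the 24 arrays Cy5 carried the thymocyte RNA and Cy3 a common reference pool of mouse RNA, so every level below is a log2 Cy5/Cy3 ratio and every difference is a difference between such ratios, averaged over the sexes unless a sex is named.

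Replication-dependent histone mRNAs are made mainly while DNA is being copied, when the cell needs histones to package the new strands. Most lack introns and end in a stem-loop in place of a poly(A) tail. The stem-loop binding protein holds such mRNAs until they are degraded at the end of S phase or when DNA synthesis is blocked. In the thymus the large, dividing precursors carry most of the DNA synthesis, while most small cortical thymocytes do not divide. The labelling kit starts from a T7 promoter primer, which in kits of this type ends in oligo(dT), so the probes may read a mixture of stem-loop and polyadenylated transcripts; how much each contributes was not tested. Many H2A genes, and the H4 genes, have nearly the same coding sequence, so RNA of near-identical genes on one probe cannot be told apart, and values of single H2A and H4 genes are uncertain in this respect.

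The promoters are shown for the genes on which the results below turn, because H4c8 moved against the other H4 genes. They are the RefSeq windows of build GRCm38.p6, printed 5′ to 3′ on the gene's strand from 150 bases before the annotated start to 30 bases into the transcript, with 4 motifs in capitals on either strand: the TATA box (TATAAA), the CCAAT box (CCAAT, or ATTGG on the other strand), the octamer (ATTTGCAT) and part of the H4-specific promoter element (GGTCCG). H4c8 lies at chr13:23530894-23531073, plus strand, H4c4 at chr13:23581418-23581597, plus strand, H4c3 at chr13:23698429-23698608, minus strand and H4c17 at chr13:21811596-21811775, plus strand.
H4c8: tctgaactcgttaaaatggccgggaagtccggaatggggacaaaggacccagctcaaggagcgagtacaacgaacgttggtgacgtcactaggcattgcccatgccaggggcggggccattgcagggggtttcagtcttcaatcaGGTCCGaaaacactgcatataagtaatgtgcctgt
H4c4: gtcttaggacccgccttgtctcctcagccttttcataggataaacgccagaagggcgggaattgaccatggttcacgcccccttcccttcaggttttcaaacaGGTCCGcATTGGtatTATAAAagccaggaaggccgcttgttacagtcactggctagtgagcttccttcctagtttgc
H4c3: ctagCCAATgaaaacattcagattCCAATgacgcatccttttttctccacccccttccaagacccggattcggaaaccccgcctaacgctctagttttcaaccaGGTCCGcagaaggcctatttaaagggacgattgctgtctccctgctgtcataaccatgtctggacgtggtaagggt
H4c17: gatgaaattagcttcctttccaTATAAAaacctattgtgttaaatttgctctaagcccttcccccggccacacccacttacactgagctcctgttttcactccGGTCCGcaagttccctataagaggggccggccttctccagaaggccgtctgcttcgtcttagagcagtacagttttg

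A window from one gene each of H2A, H2B and H1 is set beside them. H2ac12 lies at chr13:22035614-22035793, minus strand, H2bc14 at chr13:21721894-21722073, plus strand and H1f5 at chr13:21780596-21780775, minus strand.
H2ac12: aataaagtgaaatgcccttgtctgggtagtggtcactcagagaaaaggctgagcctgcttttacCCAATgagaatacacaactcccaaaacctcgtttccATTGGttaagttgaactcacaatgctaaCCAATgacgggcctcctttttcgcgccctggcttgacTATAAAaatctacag
H2bc14: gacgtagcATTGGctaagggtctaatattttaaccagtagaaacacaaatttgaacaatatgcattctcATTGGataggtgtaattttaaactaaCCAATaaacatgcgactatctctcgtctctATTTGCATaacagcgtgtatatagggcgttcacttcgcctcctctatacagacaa
H1f5: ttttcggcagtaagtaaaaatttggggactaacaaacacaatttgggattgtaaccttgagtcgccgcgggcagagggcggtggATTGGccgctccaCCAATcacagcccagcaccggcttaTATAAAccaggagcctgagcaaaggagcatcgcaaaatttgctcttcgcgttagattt

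Of the 40 member genes, 35 were in the promoter table. In the whole 300-base windows GGTCCG was present in 8 of 8 listed H4 genes, H4c8 included, and in 1 of 27 others, against 8.25% of all 32851 promoters. CCAAT was present in 27 of 27 listed H1, H2A, H2B and H3 genes and in 2 of 8 H4 genes, against 37.4% of all promoters. The octamer was present in 4 of 11 H2A and 5 of 7 H2B genes, against 1.74%, and TATAAA in 20 of 35 member genes, against 13.6%. The H4c8 window held GGTCCG alone of these motifs, as did that of H4f16. The annotated starts differ, since GGTCCG begins at position -5 from the start in H4c8 and at position -47 in H4c4. Between these it begins at -18 in H4c11 and at -32 in H4c12 and H4f16. These matches describe letters in the windows and not bound factors.

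Irradiation was followed by lower histone levels in all 3 irradiated treatments, most widely in RAR. In RAR, 36 of 44 probes fell against control, 1 rose (H4c8) and 7 did not pass the threshold, an adjusted p under 0.05 from limma and a change of at least 1.5-fold. After the high dose 23 fell and 1 rose, and after the low dose 18 fell and 1 rose. The median log2 difference over the 44 probes was -0.55 in low dose, -0.68 in high dose and -1.45 in RAR, beside -0.01, -0.02 and -0.03 over all probes. Of all 55681 probes, 4.83% fell and 5.09% rose in low dose, 5.63% fell and 5.89% rose in high dose, and 13.7% fell and 12.4% rose in RAR. In bulk RNA, fewer cells of a kind that makes histone mRNA and less histone mRNA per cell cannot be told apart.

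**Figure D1:**
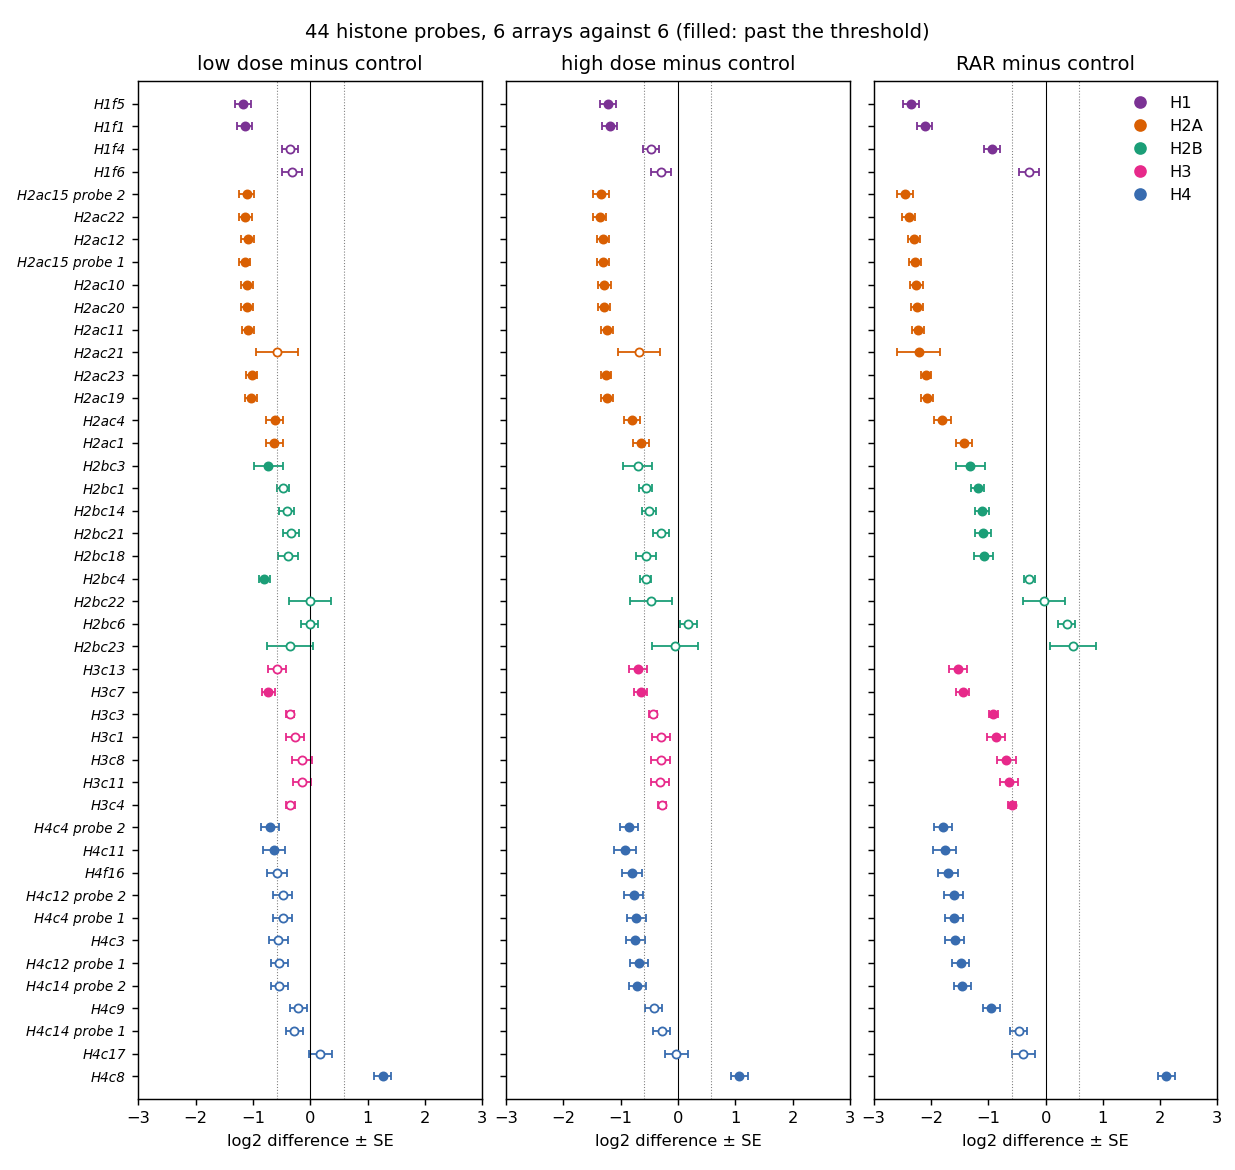
Log2 difference from control with its SE (x axis) for each of the 44 histone probes (y axis, coloured by class) in low dose, high dose and RAR, 6 arrays against 6; filled points passed the threshold and dotted lines mark 1.5-fold. H1f5, H1f1 and most H2A probes lie farthest to the left, and H4c8 alone has filled points on the right, at 1.26, 1.07 and 2.10.

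On single arrays the same order was seen in the median ratio of the 44 probes. It was 0.68 to 1.41 on the 6 control arrays, 0.38 to 1.11 in low dose, 0.27 to 0.63 in high dose and -0.55 to -0.20 in RAR. Every RAR array was thus below every other array, every high dose array was below every control array, and the low dose and control arrays overlapped. All 6 RAR arrays lay below all 6 control arrays for 32 of the 44 probes (14.9% of all probes). This held for 16 in high dose (8.98% of all probes) and 12 in low dose (8.37%).

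**Figure D2:**
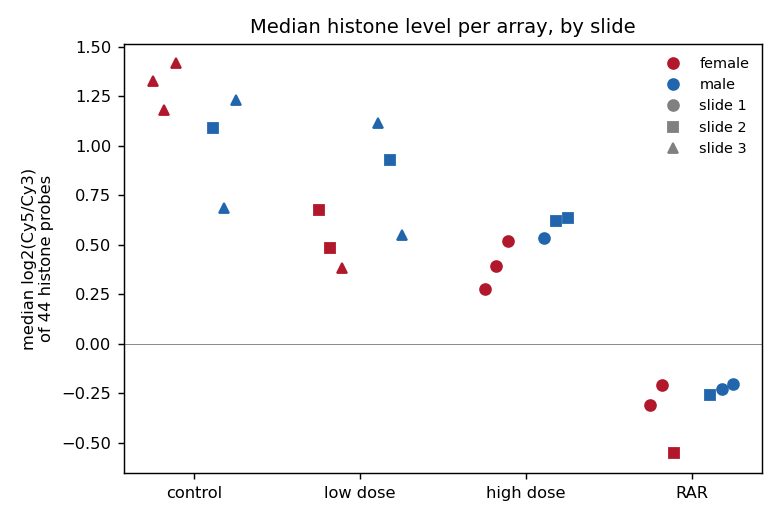
Median log2 Cy5/Cy3 of the 44 histone probes (y axis) on each of the 24 arrays by treatment (x axis), coloured by sex, with the slide as the symbol. The 6 RAR arrays lie between -0.55 and -0.20, below every array of the other treatments.

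The arrays came on 3 slides of 8, and treatments were spread unevenly over them: 5 of 6 control arrays were on slide 3 and 0 RAR arrays were. Slide 2 held all 4 treatments, with 1 control array, from a male. Differences within a slide are between plain means of its arrays, so the sexes are not balanced in them. On slide 2 the median difference of the 44 probes was -0.38 in low dose, -0.35 in high dose and -1.45 in RAR. On slide 3 low dose minus control was -0.64, and on slide 1 RAR minus high dose was -0.59. H4c8 was higher than control on slide 2 by 1.41 in low dose, 1.43 in high dose and 2.24 in RAR. With the slide as a block, 22 probes fell in low dose, 27 in high dose and 37 in RAR. The share of all probes in that model is not given here.

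Core histone H2A pairs with H2B in the nucleosome, and its class had the lowest median difference in each treatment. All 12 H2A probes fell in RAR and 11 of 12 in each single exposure, with class medians of -1.09 in low dose, -1.27 in high dose and -2.23 in RAR. The H2ac12 ratio had a lowest, median and highest value of 1.45, 1.93 and 2.07 in control, 0.45, 0.73 and 1.26 in low dose, 0.41, 0.61 and 0.67 in high dose, and -0.67, -0.35 and -0.32 in RAR. Every irradiated array was below every control array, and every RAR array was below all others. Its fall in RAR was 4.91-fold (log2 difference -2.30 ± 0.11 SE, with an adjusted p of 2.33e-11 in the limma fit). An exact permutation of the 12 arrays, two-sided, gave p = 0.0022, the smallest that 6 arrays against 6 allow.

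The H2A probe with the largest fall in RAR was one of the pair for H2ac15. Its ratio was 0.83, 1.36 and 1.49 (lowest, median, highest) in control and -1.43, -1.12 and -0.93 in RAR, a log2 difference of -2.45 ± 0.14, while the other probe of the gene fell by 2.28. H2ac22 fell by 1.37 in high dose and by 2.39 in RAR, and H2ac20 by 1.29 in high dose. Of the 12 probes, 10 had RAR differences from -2.45 to -2.07, and whether they read separate genes was not tested.

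H2ac1 is the testis member of the class, and it fell by 0.63 in low dose, 0.64 in high dose and 1.42 in RAR. H2ac4 fell by 0.62, 0.80 and 1.81. H2ac21 was the noisiest H2A probe, with Cy5 well above background on all 6 control arrays and on 1 of 6 RAR arrays. Its RAR ratio ran from -3.42 to -0.89, and its fall against high dose (-1.54 ± 0.37, adjusted p = 0.0052) was -0.39 with normexp background correction, under the fold threshold. Against low dose it was -1.63 ± 0.37, and -0.39 with normexp.

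Linker histone H1 binds the DNA that enters and leaves the nucleosome. H1f5 and H1f1 fell like the H2A probes, H1f4 passed the threshold in RAR alone with the sexes averaged, and H1f6, the testis H1, in no comparison with control. The H1f5 ratio was 0.76, 1.10 and 1.23 (lowest, median, highest) in control, -0.50, -0.13 and 0.28 in low dose, -0.49, -0.13 and -0.01 in high dose, and -1.88, -1.22 and -1.02 in RAR. The 4 treatments thus formed 3 levels, with the low dose and high dose arrays overlapping. The falls were 2.25-fold in low dose, 2.33-fold in high dose and 5.11-fold in RAR (log2 -2.35 ± 0.14, adjusted p = 3.16e-10). H1f1 fell by 1.15 in low dose, 1.19 in high dose and 2.11 in RAR, and H1f4 by 0.94 in RAR. In females H1f4 fell in all 3 treatments, by 0.75 in low dose, 0.85 in high dose and 1.32 in RAR. H1f6 differed from control in RAR by -0.28 ± 0.17 (adjusted p = 0.23).

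**Figure D3:**
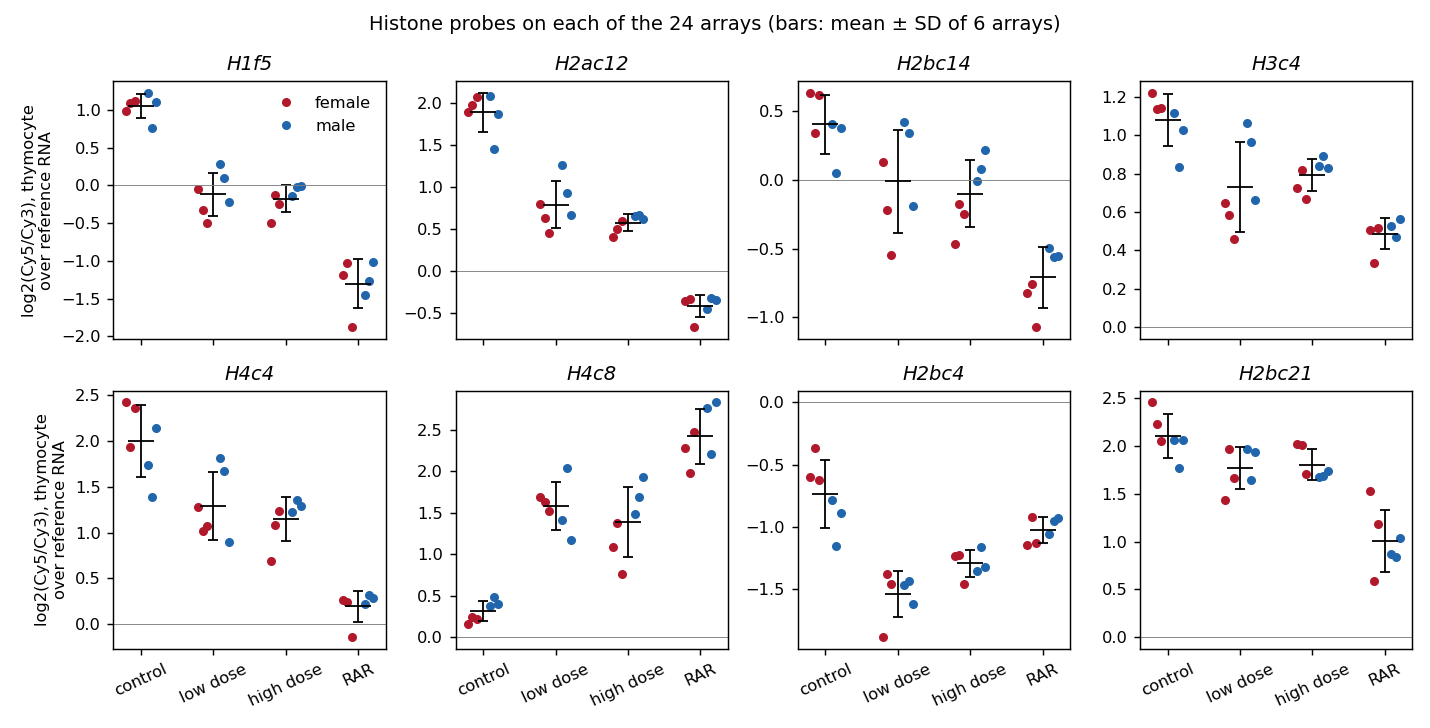
Log2 Cy5/Cy3 ratio (y axis) of 8 histone genes on each array by treatment (x axis), coloured by sex; bars are the mean ± SD of 6 arrays and each panel has its own scale. H1f5, H2ac12 and H4c4 step down from control to RAR, H4c8 steps up from a mean of 0.32 to 2.42, and H2bc4 is lowest in low dose.

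H4 is the most conserved core histone and pairs with H3. With the sexes averaged, 9 of its 12 probes fell in RAR, 8 in high dose and 2 in low dose, with class medians of -1.53, -0.72 and -0.51. In males alone 0 of the 12 fell in either single exposure, while in females 9 fell in each. The H4c4 probe with the higher signal had ratios of 1.39, 2.04 and 2.42 (lowest, median, highest) in control, 0.90, 1.18 and 1.81 in low dose, 0.69, 1.23 and 1.36 in high dose, and -0.14, 0.25 and 0.31 in RAR. The RAR arrays were below all others, and the low dose arrays overlapped the controls. Its log2 difference was -0.70 ± 0.16 in low dose, -0.85 ± 0.16 in high dose and -1.80 ± 0.16 in RAR. The 2 probes of H4c14 disagreed, since one fell by 1.45 in RAR and the other differed by -0.47 ± 0.15 (adjusted p = 0.017), under the fold threshold. The latter was much dimmer, with a mean log2 Cy5 signal in control of 6.95 against 17.10. It was well above background on 5 of 6 RAR arrays. With the sexes averaged, H4c17 did not pass in any comparison with control and differed by -0.39 ± 0.20 in RAR; in females alone it fell in RAR by 0.83 ± 0.28.

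H4c8, known earlier as Hist1h4h, was the single member that rose, and it rose in every comparison with control and in RAR against each single exposure. Its ratio was 0.16, 0.31 and 0.48 (lowest, median, highest) in control, 1.17, 1.58 and 2.04 in low dose, 0.76, 1.43 and 1.93 in high dose, and 1.98, 2.37 and 2.83 in RAR. All 18 irradiated arrays were above all 6 control arrays. The rise was 2.40-fold in low dose, 2.10-fold in high dose and 4.30-fold in RAR (log2 2.10 ± 0.15, adjusted p = 2.40e-09; exact permutation p = 0.0022). Against high dose RAR was higher by 1.03 ± 0.15, and against low dose by 0.84 ± 0.15. Cy5 was well above background on 24 of 24 arrays.

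H3 carries many of the marks that chromatin enzymes write. All 7 H3 probes fell in RAR (class median -0.87), 2 fell in high dose and 1 in low dose. The largest H3 falls in RAR were those of H3c13 (-1.53 ± 0.16) and H3c7 (-1.45 ± 0.11), and both also fell in high dose, by 0.69 and 0.65. H3c4 had the smallest, with ratios of 0.83, 1.12 and 1.22 (lowest, median, highest) in control and 0.33, 0.51 and 0.57 in RAR. These arrays did not overlap, but the difference of -0.59 ± 0.07 lies at the fold threshold, which it missed under 7 of 33 alternatives.

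Of the 9 H2B probes 5 fell in RAR, 2 in low dose and 0 in high dose, with class medians of -1.08, -0.39 and -0.50. H2bc14 had ratios of 0.05, 0.39 and 0.63 (lowest, median, highest) in control, -0.55, -0.03 and 0.42 in low dose, -0.46, -0.09 and 0.21 in high dose, and -1.07, -0.66 and -0.49 in RAR. RAR differed from control by -1.11 ± 0.12, and the single exposures overlapped control. The testis gene H2bc1 fell by 1.18 in RAR and H2bc3 by 1.32. H2bc6 (0.37 ± 0.15) and H2bc22 (-0.03 ± 0.37) did not pass the threshold in RAR, and H2bc23 was not well above background on any array, so no fold is given for it. With H2bc4, these genes have the longest annotated spans of the H2B members. H2bc6 lies at chr13:23583670-23621124, against chr13:21722044-21722526 for H2bc14, and which transcripts their probes read was not tested.

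H2bc4 and H2bc21 belong to the histone genes known to make polyadenylated mRNA as well, and they moved differently from each other. H2bc21 did not pass in either single exposure (-0.33 ± 0.14 and -0.30 ± 0.14) and fell in RAR by 1.10 ± 0.14, from 1.77, 2.07 and 2.46 (lowest, median, highest) in control to 0.59, 0.95 and 1.53. H2bc4 fell in low dose, from -1.15, -0.70 and -0.36 in control to -1.89, -1.46 and -1.38 (log2 difference -0.81 ± 0.10, adjusted p = 6.27e-06). In high dose it was -1.46, -1.28 and -1.16 and in RAR -1.15, -1.01 and -0.92, differences of -0.56 ± 0.10 and -0.29 ± 0.10 that were under the fold threshold. Every high dose array was below the lowest control array, and RAR was above both single exposures on all 6 arrays.

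RAR was also compared with each single exposure, which asks whether both exposures together left another histone level than each alone. Against high dose 27 of 44 probes were lower in RAR and 1 was higher (4.23% and 5.29% of all probes), with a median of -0.80. Against low dose 31 were lower and 1 was higher (4.29% and 4.78%), with a median of -0.85. All 12 H2A probes were lower in both comparisons. H1f5 was lower than in high dose by 1.13 ± 0.14 and than in low dose by 1.19 ± 0.14, and H4c4 by 0.95 ± 0.16 and 1.10 ± 0.16. The low dose and high dose groups themselves were compared after the values had been seen. There 0 of 44 members passed the threshold (0.00359% of all probes did), 2 had an unadjusted limma p under 0.05 (6.81% of all probes), and the median difference, high dose minus low dose, was -0.16 with 36 of 44 probes below 0.

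Whether the RAR change equals the sum of the changes after each exposure alone was tested with the interaction of X-rays and γ-rays, also added after the values had been seen. It was past the threshold for 1 of 44 members, H2bc4, against 5.56% of all probes in either direction, and 2 members had an unadjusted p under 0.05, against 19.98% of all probes. Over the 44 probes the median sum of the single changes was -1.26, the median RAR change -1.45 and the median departure -0.13 (all probes 0.00), with a median SE of 0.21. By class the median departure was -0.27 in H4 (11 of 12 probes below 0) and -0.18 in H3 (6 of 7). It was 0.11 in H2A (3 of 12 below 0), 0.12 in H2B (4 of 9) and 0.13 in H1 (1 of 4). For H1f5 the departure was 0.04 ± 0.20, for H2ac12 0.11 ± 0.16, for H4c4 -0.24 ± 0.22 and for H4c8 -0.23 ± 0.21. H2bc4 departed by 1.08 ± 0.13 (adjusted p = 3.22e-05), its RAR level being higher than the sum of its 2 falls. Departures small against these SEs were not detectable. The 2 exposures of RAR were 6 h apart and the harvest time is not given. The time since each exposure may therefore differ between RAR and the single-exposure groups.

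**Figure D4:**
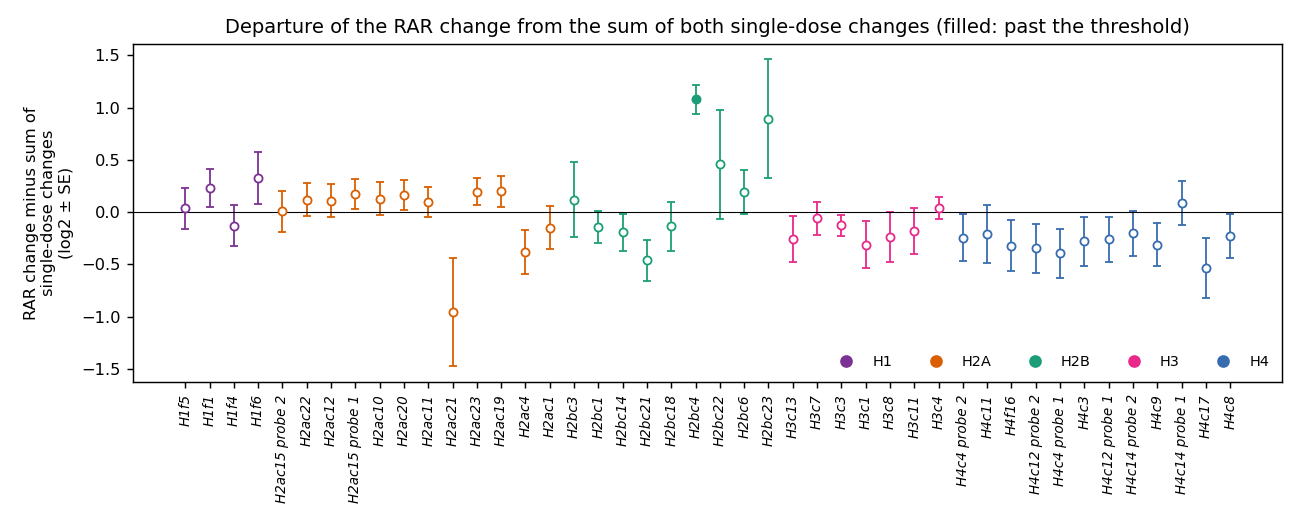
Log2 RAR change minus the sum of the low dose and high dose changes, with its SE (y axis), for each histone probe (x axis, coloured by class); the filled point passed the threshold. Of the 44 points 19 lie within 1 SE of 0, H2bc4 lies at 1.08, and the wide bars of H2ac21 and H2bc23 are those of dim probes.

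The falls were counted in each sex. In females 31 of 44 probes fell in low dose (4.0% of all probes), 31 in high dose (3.65%) and 38 in RAR (10.8%). In males 11 fell in low dose (3.44%), 11 in high dose (5.38%) and 29 in RAR (13.4%). The 11 male falls in each single exposure were 2 H1 and 9 H2A probes, with 0 of H2B, H3 and H4. In females 5 H2B, 3 H3 and 9 H4 probes fell in each single exposure. H4c8 rose in each sex in all 3 treatments. The female minus male difference in these counts is not itself a test: the sex by treatment interaction was past an adjusted p of 0.05 for 0 of 44 members (0.00359% of all probes, lowest member adjusted p = 0.70), while 14 of 44 had an unadjusted p under 0.05 (6.49% of all probes). The male change minus the female change was above 0 for 41 of 44 probes in low dose (median 0.64), 42 in high dose (0.43) and 38 in RAR (0.43), and these 3 share the same control arrays. Leaving out the value farthest from each group mean, a step the study's methods also name, narrows the spread within groups by construction. After it 38 of 44 members passed the interaction test, against 60.5% of all probes. That count cannot tell a sex difference from the narrowed spread.

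Within H4 the sexes can be read on single arrays. The H4c4 control arrays read 2.42, 1.94 and 2.36 in females and 1.73, 1.39 and 2.14 in males, and the RAR arrays 0.26, 0.24 and -0.14 against 0.22, 0.31 and 0.29. Male RAR minus female RAR was past the threshold for 0 members (0.438% of all probes), 4 had an unadjusted p under 0.05 (11.8% of all probes), and the median was 0.12. Male control replicate 2 had the lowest median histone ratio of the controls, 0.68, against 1.09 to 1.41 on the other 5. Without it 23 probes fell in low dose and 27 in high dose, and the share of all probes in that fit is not given here.

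Genes that make, process and deposit histones were read from lists. Of 17 genes for histone gene transcription and mRNA 3′ processing, 9 fell and 0 rose in RAR, 7 fell in high dose and 4 in low dose, with medians of -0.76, -0.39 and -0.42. Slbp, the stem-loop binding protein, fell by 1.16 ± 0.10 in low dose, 1.26 ± 0.10 in high dose and 1.72 ± 0.10 in RAR. Eri1, a nuclease that trims the end of histone mRNA, fell by 1.47 ± 0.11 in RAR, Cdk2, the kinase that works with cyclin E at the start of S phase, by 1.41 ± 0.10, and Cstf2, a 3′ end processing factor, by 1.18 ± 0.07. Npat, the coactivator of histone genes, was not well above background on any array.

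Of 14 histone chaperone genes, 10 fell and 1 rose in RAR, while 5 fell in high dose and 6 in low dose. Asf1b, which hands H3 and H4 to the replication fork, fell by 1.16 ± 0.08 in RAR, Chaf1b, a subunit of the assembly factor CAF-1, by 0.91 ± 0.07, and Hira, which deposits the H3.3 variant outside replication, by 0.99 ± 0.09. Daxx, another H3.3 chaperone, rose by 1.69 ± 0.09 in RAR and did not pass in low dose (0.25 ± 0.09) or high dose (0.32 ± 0.09). Of 11 genes listed as replication-independent histones 5 fell in RAR: H2ax, which is phosphorylated at DNA breaks, by 1.25 ± 0.09, H2az1 by 1.02 ± 0.09, H2aj by 1.91 ± 0.11, H1f0 by 2.23 ± 0.20, and H1f10. In low dose 3 fell and 1 rose, and in high dose 3 fell. Their median was -0.54 in RAR, -0.18 in high dose and -0.14 in low dose. H1f0 was well above background on 16 of 24 arrays and H1f10 on 19 of 24, so the sizes of their falls are uncertain. The mean H2aj ratios in control and RAR (1.77 and -0.15) lay near those of the member H2ac19 (1.77 and -0.31). Whether the H2aj probe also reads other H2A genes was not tested.

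Of 16 S phase and cycling genes, 14 fell and 0 rose in RAR (median -1.06). In high dose 9 fell and 1 rose, and in low dose 9 fell and 1 rose, the riser being Mki67 in both, which was singled out after its values were seen (0.60 ± 0.14 in low dose, 0.81 ± 0.14 in high dose). Pcna, the sliding clamp of DNA polymerase, fell by 1.14 ± 0.08 in low dose, 1.27 ± 0.08 in high dose and 1.40 ± 0.08 in RAR, so its RAR fall was smaller than the sum of the others (departure 1.02 ± 0.11, adjusted p = 6.73e-06). The helicase subunit Mcm6 did the same (0.91 ± 0.11), as did Slbp (0.70 ± 0.14), whereas Mcm7 departed by 0.06 ± 0.10. Over the S phase list 3 genes departed upward and 3 downward, the latter being Mki67 (-1.23 ± 0.20), Ccna2 (-0.87 ± 0.14) and Top2a (-0.60 ± 0.15), named after their values were seen. The lists were chosen with results of these data known, so their counts are descriptions.

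**Figure D5:**
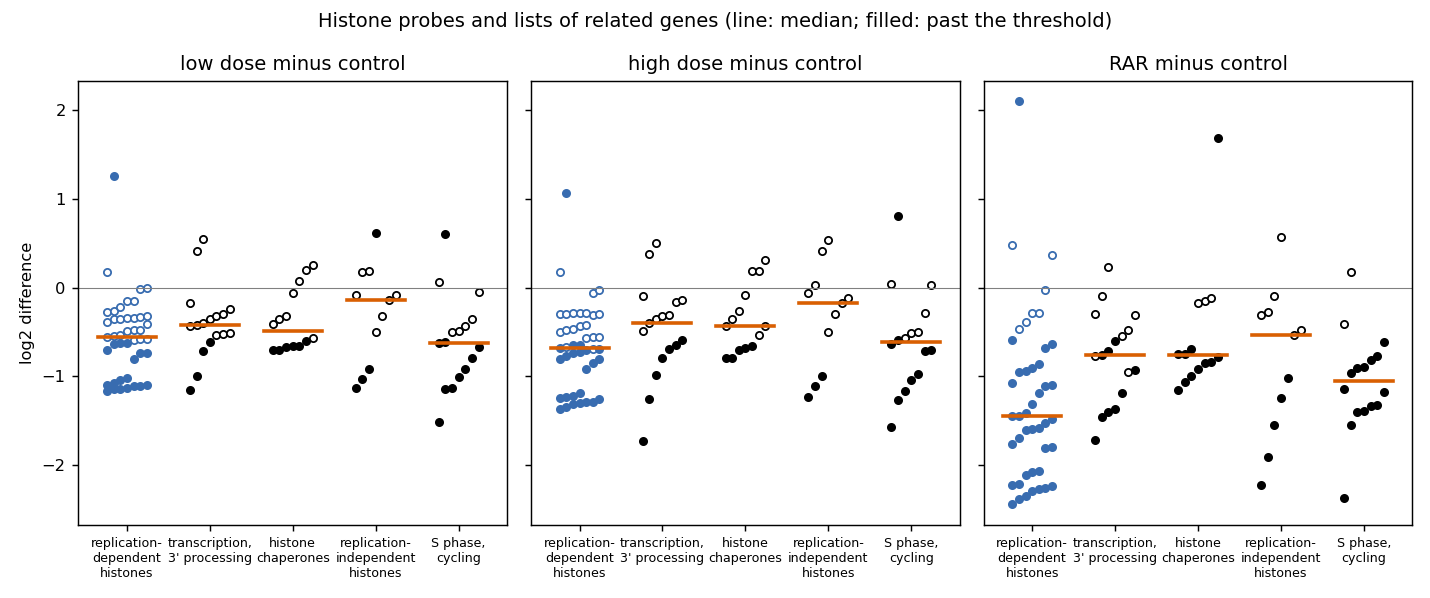
Log2 difference from control (y axis) of the 44 histone probes and of the genes of 4 related lists (x axis), 1 probe per gene, in low dose, high dose and RAR; lines are medians and filled points passed the threshold. In RAR the histone median is -1.45 and that of the S phase list -1.06, and the single high points are H4c8 at 2.10 and Daxx at 1.69.

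Markers of the cells in the preparation were read beside these results. All 10 thymocyte markers were well above background on every array, and their mean log2 ratio was 5.43 to 5.95 in control and 5.52 to 5.81 in RAR. In RAR 2 of them rose, Rag1 (0.79 ± 0.10) and Cd8b1 (0.68 ± 0.10), and 2 fell, Themis (-0.75 ± 0.14) and Ptcra (-0.65 ± 0.16). All 7 myeloid markers rose in RAR and were well above background on 24 of 24 arrays, with a mean ratio of 0.84 to 1.32 in control, 1.49 to 1.85 in low dose, 1.5 to 2.06 in high dose and 2.27 to 2.83 in RAR, and 3 rose in each single exposure. Of 6 B cell markers 4 fell and 1 rose in RAR (0.70 to 1.13 in control, 0.24 to 0.53 in RAR), with Cd79a well above background on 4 of 24 arrays. Of 5 erythroid markers 1 rose and 0 fell in RAR: the globin gene Hba-a1 rose by 0.98 ± 0.14, while Hbb-b1 (0.24 ± 0.41), Alas2 (-0.79 ± 0.34) and Slc4a1 (-0.62 ± 0.32) did not pass, and Klf1 was not well above background on any array. Of 5 thymic epithelial markers 1 rose and 2 fell (0.12 to 0.64, then -0.95 to -0.22), with Foxn1 well above background on 6 of 24 arrays. Psmb11 fell by 4.08 ± 0.47 but was well above background on 8 of 24 arrays. Epcam fell by 0.65 ± 0.20 and Krt8 rose by 1.33 ± 0.15. Of 6 stromal markers 2 rose and 1 fell (-4.57 to -4.09, then -4.83 to -4.14). The part of these shifts in the histone values was not tested.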

How the data were processed

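Thymocyte RNA of 24 mice was labelled with Cy5 and hybridized with a Cy3 reference on 2-colour arrays, without dye swaps. The authors deposited Feature Extraction 11.5.1.1 output, whose intensity values are background-subtracted, dye-normalized processed signals with flags for both dyes. They also deposited 1 table with the log2 Cy5/Cy3 ratio of every probe. On each array 99.8% of the table's ratios lay no more than 0.01 from the log2 ratio recomputed here from those signals. The table was used; values whose spots were all flagged as outliers were left out. Arrays carried 183 to 368 such spots and 0 saturated ones, and Cy5 was well above background for 34.7% to 71.8% of probes, which limits dim probes most in female RAR replicate 3, the array with 34.7%.

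One model held 8 group means and every array (limma 3.58.1, R 4.3.3, 16 residual degrees of freedom). It was tested on simulated data first. Adjusted p-values are Benjamini-Hochberg values over all 55681 probes. A probe passed with an adjusted p under 0.05 if it also changed 1.5-fold or more. Treatments were compared with the sexes averaged, so that 6 arrays met 6, and the interaction of sex and treatment with limma's F-test. Single probes also had an exact two-sided permutation test. The mice are the replicates, as the labels call the samples independent.

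Genes were named through the accession in the array files and a GRCm38.p6 gene table. The files' own annotation is of another build, so its positions were not used, and the chromosomes and promoter windows given are those of GRCm38.p6. Probe sequences were not used here. The summed level of the erythroid marker list is not reported here. Members and lists were chosen with earlier results of these data known. Named in the text were, per comparison, at most 4 member genes with the largest rise and 4 with the largest fall among probes past the threshold and well above background on at least 5 of the 6 arrays of the brighter group, the probe with the highest Cy5 signal in control for each class, testis and polyadenylated members, and at most 4 genes per list with the lowest adjusted p; other members were named after their values were seen. A list gene with several probes was represented by its brightest probe in Cy5, on average over arrays. Alternatives were the scanner's processed signals, outliers kept, normexp (offset 50) with loess, quantile normalization, Cy5 alone, dim probes left out, the slide or replicate number as a block, other fold thresholds, the value farthest from each group mean left out (an outlier step of the study's methods), and each array left out. All columns of values were matched to samples. Scripts ran in Python 3.11.15 with pandas 2.3.3 and matplotlib 3.10.9.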

Additional observations from a re-analysis of the deposited data

How the results depend on the processing

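The counts of histone probes past the threshold in the 5 treatment comparisons stayed within 1.5 times of the values given under background correction, normalization, scaling, blocking and leaving out single arrays. They moved with the fold threshold. With a log2 fold change over 1.5, 0 probes passed in high dose and 0 in low dose, 21 in RAR against control (20 lower), 1 in RAR against high dose, 1 in RAR against low dose and 0 in the test of additivity; without a fold threshold 30 passed in low dose. Leaving out the value farthest from each group mean, which by construction narrows the spread within groups, gave 3 probes for male against female RAR (18.7% of all probes), 38 for the sex by treatment interaction (60.5%), 1 for high against low dose (12.5%) and 3 for additivity (23.8%). In this section shares of all probes are given for that step alone, so the other counts are not set against all probes.

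Leaving out each array in turn gave 23 to 28 probes in high dose, 14 to 24 in low dose, 35 to 37 in RAR, 26 to 29 for RAR against high dose, 30 to 36 for RAR against low dose, 1 for additivity, and 0 for high against low dose and for both sex comparisons. Replicate numbers did not pair the samples: deviations of same-numbered arrays had a median correlation of 0.00 (-0.16 to 0.22), and with the replicate number as a block 24, 19, 37, 28 and 32 probes passed in high dose, low dose, RAR against control, RAR against high dose and RAR against low dose, as without it, and no other call changed in number. In the Cy5 channel alone the median of all probes was 0.52 higher in RAR than in control, and the member median of -1.43 lies further below it. With normexp the RAR median of the members was -1.0.

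H4c8 kept its direction and its call in low dose, high dose and RAR under all 33 alternatives run for it, with log2 differences from control in RAR of 1.78 to 2.28, and H2ac12 and H1f5 did so in RAR with -2.57 to -1.66 and -2.75 to -2.14. Of the values of named members, 1009 kept their call, 10 fell under the threshold and 4 passed it; the 14 belong to H3c4, H2ac21 and H2bc4, and 0 changed sign. The fall of H2ac21 in RAR against low dose also missed the threshold with the slide as a block (-1.22). Signal over background limits the dim probes: H2bc23 was not well above background on any array, and H2bc22 on 13 of 24.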
